A study of Macaca mulatta with 81 samples.

Results

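The genes described are heat shock proteins and chaperones of T cells in rhesus macaques that received a haematopoietic cell transplant. They were chosen by symbol alone: a gene was included where its name began with HSP70, HSP90, HSP110 or small heat shock protein letters, with those of the J-domain families DNAJA, DNAJB and DNAJC, or with those of a subunit of the TRiC chaperonin, together with FKBP4, FKBP5, STIP1 and AHSA1. Of the 14132 genes that had a probe set assigned to 1 gene, 62 met this rule, and each was represented by the probe set with the highest mean over all arrays. A level is therefore a log2 intensity of 1 probe set, and levels of different genes are not compared. A filter on dim values left 55 of the 62 for testing, of 11806 genes in all. The 7 genes not tested were CCT8L2, DNAJB7, DNAJC12, DNAJC22, DNAJC25, HSPA12A and HSPB3. HSPBP1 and HSPBAP1 matched the letters of the rule but are proteins that bind heat shock proteins and are not small heat shock proteins themselves, so they are given apart. A further 23 genes whose symbols fit the rule had no probe set of their own in the gene table, among them HSPA5 (the HSP70 of the endoplasmic reticulum, also called BiP), HSPD1 and HSPE1 (the mitochondrial chaperonin), HSPB1, CCT3 and DNAJC3; these, and HSPA1A, were not analysed here.

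CD3 T cells were sorted from blood, and their total RNA was labelled and hybridised to 81 arrays: 34 from healthy animals without a transplant and 47 from 27 transplanted animals, 11 of which also gave a healthy array. NoRx.F holds the final samples of 4 allogeneic recipients given no prophylaxis against graft-versus-host disease, the attack of donor T cells on the recipient. Auto.D14 and Auto.D36 hold the same 3 autologous recipients, whose cells came back to their own donor, at day 14 and day 36. The other allogeneic groups carry the labels of their prophylaxis and time (D14, D30 or F for final): Siro.F (4 arrays), Tac.Mtx.D14 (3), Tac.Mtx.D30 (2), Tac.Mtx.F (3), Bela.F (3), Bela.Siro.D14 (3), Bela.Siro.D30 (3, of which 1 was taken on day 29), Bela.Siro.F (2), FR104.D14 (3), FR104.F (3), FR104.Siro.D14 (4, taken on days 14, 14, 22 and 34) and FR104.Siro.F (4). Siro, Tac, Mtx and Bela are taken to be sirolimus, tacrolimus, methotrexate and belatacept; FR104 is taken to be an antibody fragment against CD28. The day of the final samples was not given. Animals are called by the number in the labels, and arrays with the same number come from 1 animal.

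Chaperones bind unfolded stretches of other proteins and let them fold. HSP70 proteins do so in cycles of ATP use that J-domain proteins start and exchange factors end; HSP90 takes over partly folded clients, such as kinases and steroid hormone receptors, with the help of co-chaperones; and TRiC, a ring of CCT subunits, encloses newly made actin, tubulin and other proteins. Activated T cells make large amounts of protein, and the endoplasmic reticulum has a chaperone set of its own for secreted and surface proteins.

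The labels give 4 batches. NoRx.F and Siro.F arrays lie in batches 1 and 2 (only animal 53 of NoRx.F in batch 2), the Tac.Mtx and Bela groups in batch 3 and the Auto and FR104 groups in batch 4, with healthy arrays in each, and the batch was a term of the model. Healthy arrays differed less between batches than chance would give, with a p of that comparison above 0.95 in 61.0% of probe sets against 5% by chance. The labels describe no adjustment for batch. On 8 arrays the hybridisation control spots were brighter than on any healthy array: all 4 of FR104.Siro.D14, Auto.D14 animal 202, Bela.Siro.F animal 38, FR104.D14 animal 23 and FR104.Siro.F animal 29. The actin 3′ minus 5′ signal, a measure of RNA integrity on these arrays, ran from 0.43 to 3.83 in healthy arrays and from 0.61 to 1.14 in NoRx.F, and was lowest in Auto.D36 (−0.34 to −0.30). In bulk samples, a change in the make-up of the sorted cells and a change in RNA per cell cannot be told apart. Of the 8 T cell markers listed, the 2 with a probe set of their own gave a mean log2 level of 10.56 to 11.59 in healthy arrays and 9.82 to 10.51 in NoRx.F.

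The comparison of final samples without prophylaxis against healthy animals asked how T cells during unopposed graft-versus-host disease differ. The chaperones moved in both directions. HSPA8 was higher in NoRx.F by 1.88-fold and FKBP5 by 1.90-fold, while DNAJC10 was 1.92-fold lower and the endoplasmic reticulum HSP90, HSP90B1, was 1.51-fold lower. By limma with Benjamini-Hochberg adjustment over all genes tested, 15 of the 55 tested chaperone genes were higher and 9 lower at an adjusted p under 0.05. The higher genes include HSP90AA1, which passed the filter on dim values only through transplant arrays. Over all genes tested, 35.4% were called, 20% higher and 15.4% lower; among the chaperones 43.6% were called. The median log2 difference was 0.13 over the chaperones and 0.05 over all genes. Without any 1 of the 4 NoRx.F arrays, 20 to 25 chaperone genes were called.

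**Figure D1:**
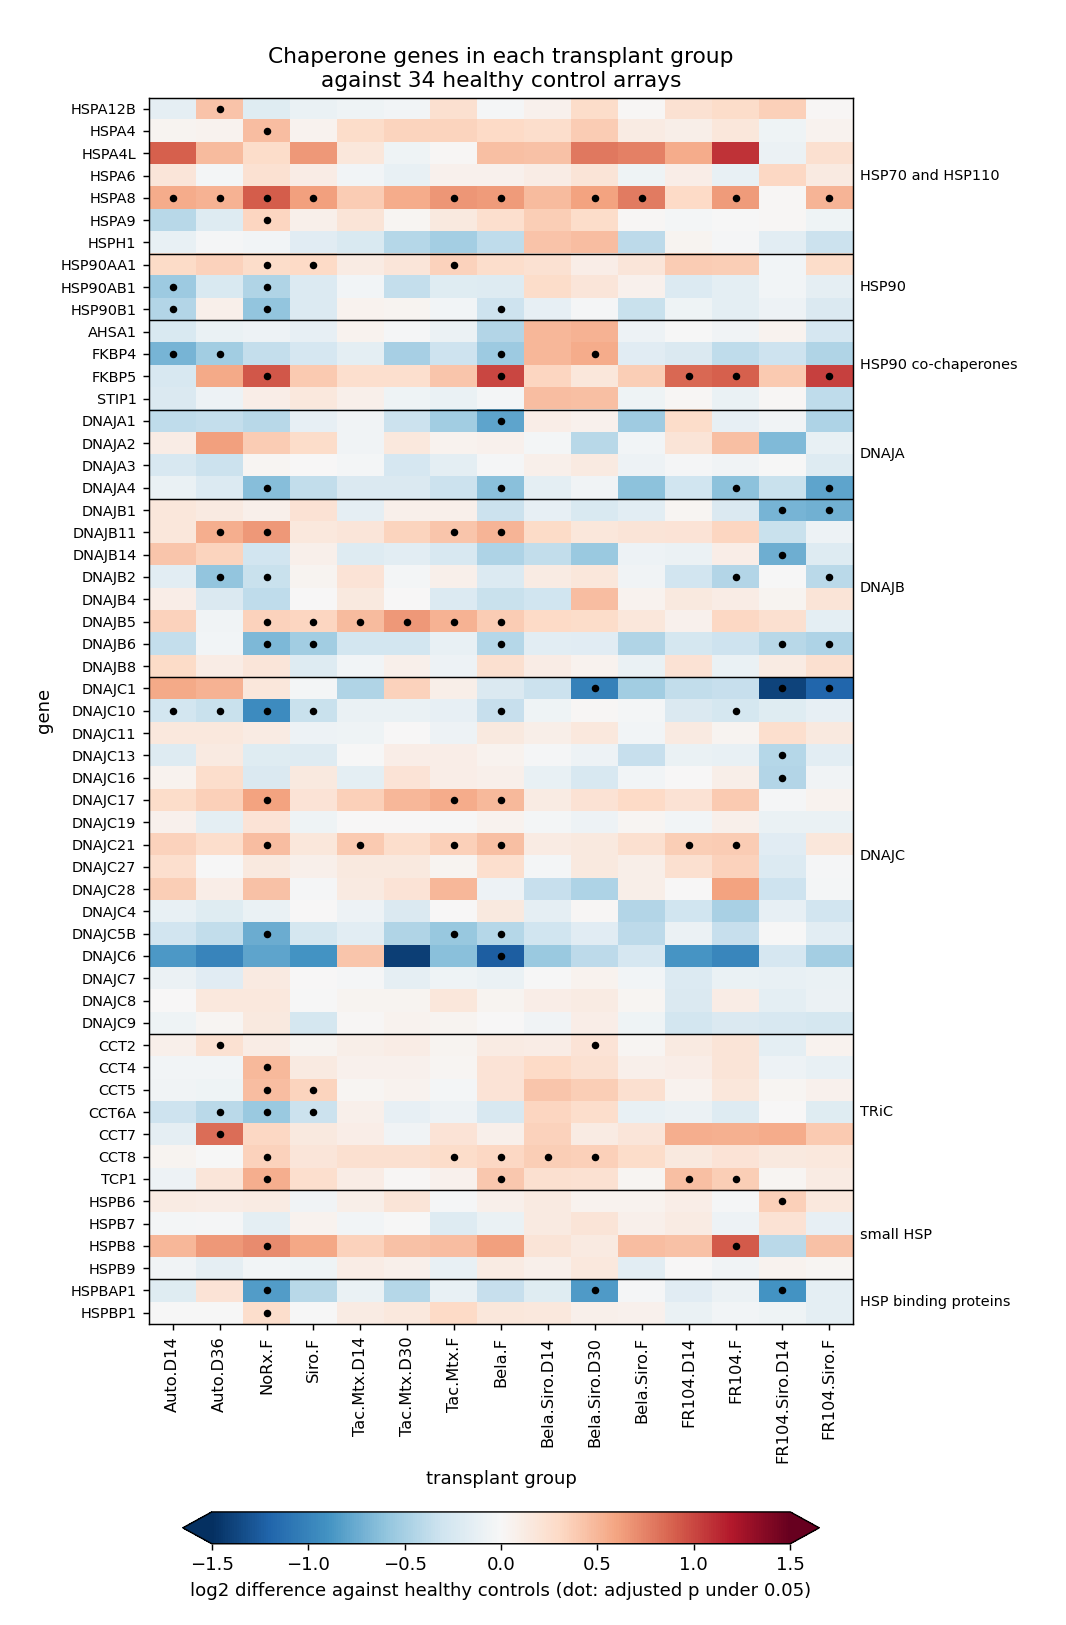
Log2 difference from healthy arrays, with batch as a term, for the 55 tested chaperone genes (rows, by family) in the 15 transplant groups (columns). Colour gives the difference on a scale from −1.5 to 1.5 and a dot marks an adjusted p under 0.05. NoRx.F has the most dots (24), HSPA8 is marked in 10 columns, and DNAJC1 is marked as lower in Bela.Siro.D30, FR104.Siro.D14 and FR104.Siro.F.

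Of the 7 tested HSP70 and HSP110 genes, 3 were higher in NoRx.F and none was lower. HSPA8 encodes the constitutive HSP70 of the cytosol. Its log2 level was 11.94, 11.45, 11.65 and 11.14 in animals 50, 51, 52 and 53, against a lowest value of 10.18, a median of 10.64 and a highest of 11.06 over the healthy arrays. Every NoRx.F array was above every healthy one. The means were 11.54 ± 0.34 (SD, n = 4) and 10.63 ± 0.21 (SD, n = 34), and the difference was 0.91 ± 0.14 (SE, adjusted p = 1.51e-07). It was 1.11 within batch 1 and 0.46 within batch 2, which holds 1 NoRx.F array.

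HSPA4, an HSP110 relative that releases nucleotide from HSP70, had log2 levels of 9.88, 9.53, 9.85 and 9.47 in the 4 NoRx.F animals, against 8.87 to 9.66 in healthy ones. Animals 50 and 52 lay above the healthy range and the other two within it; the difference was 0.46 ± 0.14 (adjusted p = 0.00521), and over the mean of the gene's probe sets it was 0.30 (adjusted p = 0.205). HSPA9, the mitochondrial HSP70, stood at 10.87, 10.40, 10.84 and 10.35 against 9.95 to 10.55, again with only animals 50 and 52 above the healthy range. Its difference of 0.32 ± 0.12 (adjusted p = 0.0302) did not pass without animal 50 or animal 52, with 0.24 at the lowest, nor over the mean of its probe sets (0.22, adjusted p = 0.0691). HSPH1, a stress-inducible HSP110, differed by −0.04 ± 0.28 (adjusted p = 0.929). The other 3, HSPA12B, HSPA4L and HSPA6, differed by −0.18, 0.28 and 0.23, none past the threshold.

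All 3 HSP90 genes passed, HSP90B1 and HSP90AB1 as lower and the dim HSP90AA1 as higher. HSP90B1, which folds integrins and Toll-like receptors in the endoplasmic reticulum, had log2 levels of 8.56, 8.78, 8.96 and 9.31 in animals 50 to 53, against a healthy lowest value of 9.11, median of 9.52 and highest of 9.71. Animals 50, 51 and 52 were below every healthy array and animal 53 was within the range. The difference was −0.60 ± 0.10 (adjusted p = 1.36e-06), −0.78 within batch 1 and −0.19 within batch 2. The gene's second probe set was too dim to pass the filter, and with the mean of both probe sets the difference was −0.19 (adjusted p = 0.0665).

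HSP90AB1, the constitutive HSP90 of the cytosol, was lower in NoRx.F at 12.78, 12.36, 12.39 and 12.35, against 12.59 to 13.24 in healthy arrays (median 12.92). Animal 50 lay inside the healthy range and the other 3 below it, with a difference of −0.45 ± 0.11 (adjusted p = 0.000615), and −0.42 and −0.57 within batches 1 and 2. HSP90AA1, the inducible form, was dim: it stood at 4.58, 4.56, 4.35 and 4.91 against 4.00 to 4.57. Its difference of 0.28 ± 0.11 (adjusted p = 0.035) did not pass without animal 50, 51 or 53, where it ran down to 0.13, nor with the actin signal as a covariate (0.26, adjusted p = 0.0514).

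Among the 4 HSP90 co-chaperones only FKBP5 passed. FKBP5 is a peptidyl-prolyl isomerase that holds the glucocorticoid receptor in a state of low hormone affinity, and its gene is a known target of that receptor. Its log2 level was 7.64, 7.56, 7.35 and 7.22 in the NoRx.F animals, against a healthy lowest value of 6.03, median of 6.40 and highest of 7.80. The ranges overlapped because a few healthy arrays were high; the means were 7.44 ± 0.19 (SD, n = 4) and 6.52 ± 0.41 (SD, n = 34), a difference of 0.93 ± 0.22 (adjusted p = 0.000524). Within batches it was 0.93 and 0.74. FKBP4, the isomerase that promotes receptor activity, was at 7.71, 7.86, 7.48 and 7.19 against 7.58 to 8.24, a difference of −0.36 ± 0.16 (adjusted p = 0.0714); with the animal as a random block it was −0.39 (adjusted p = 0.0452). AHSA1, which speeds the ATPase of HSP90, differed by −0.07 ± 0.17 (adjusted p = 0.781). STIP1, which joins HSP70 to HSP90, differed by 0.10 ± 0.14 (adjusted p = 0.629).

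**Figure D2:**
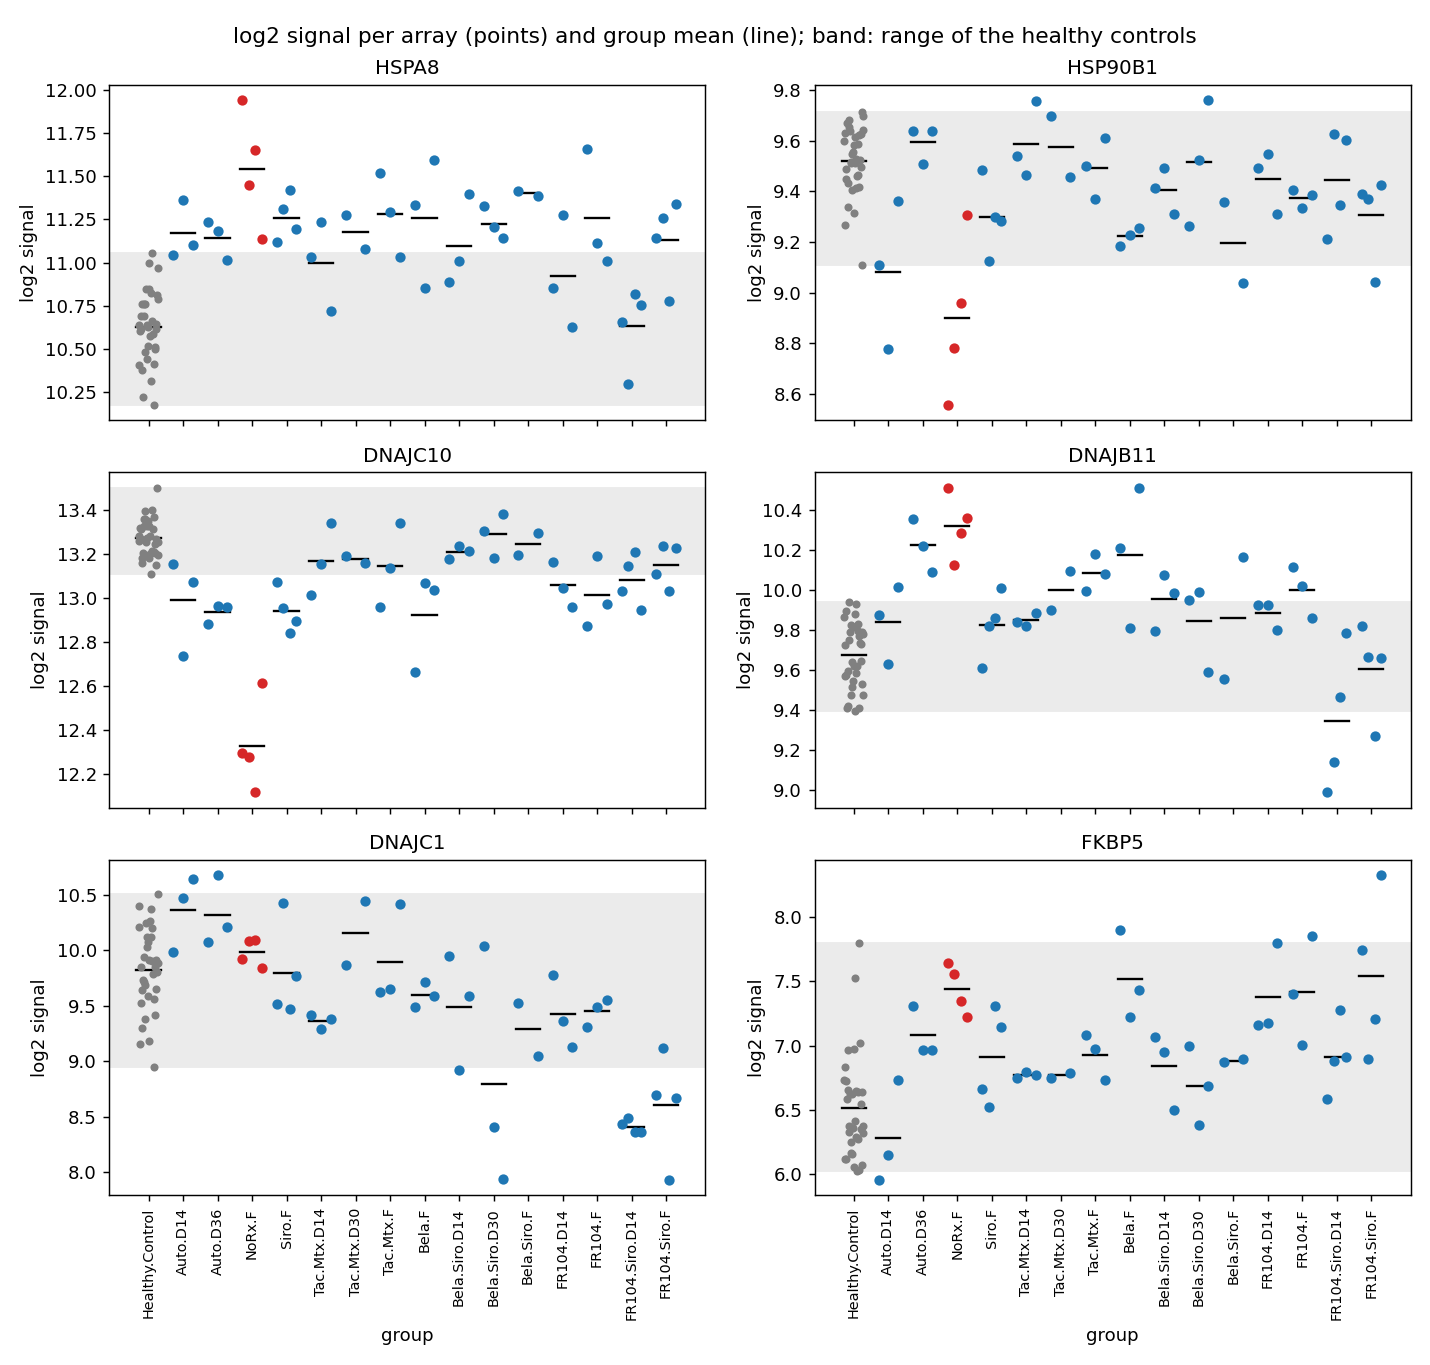
Log2 level of HSPA8, HSP90B1, DNAJC10, DNAJB11, DNAJC1 and FKBP5 on each array, by group; a point is an array, a line the group mean and the grey band the healthy range, with NoRx.F in red. DNAJC10 in NoRx.F (12.12 to 12.61) lies below every other array, and all 4 FR104.Siro.D14 arrays are below the healthy range for DNAJC1.

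Of the 7 tested TRiC subunits, TCP1, CCT4, CCT5 and CCT8 were higher in NoRx.F, CCT6A was lower, and CCT2 and CCT7 did not pass. TCP1 was at 10.98, 10.36, 10.47 and 10.44 against a healthy 9.69 to 10.46, and its difference was 0.55 ± 0.11 (adjusted p = 2.13e-05). Animal 50 exceeded the healthy range clearly and animal 52 only just. CCT4 was at 12.32, 11.94, 12.02 and 11.86 against 11.20 to 11.77, so that all 4 exceeded every healthy array. Its difference was 0.48 ± 0.10 (adjusted p = 4.34e-05).

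CCT5 (12.23, 11.85, 11.99 and 11.61, against 11.01 to 11.78) and CCT8 (12.03, 11.63, 11.86 and 11.61, against 11.19 to 11.66) each overlapped the healthy range. Their differences were 0.47 ± 0.12 (adjusted p = 0.00144) and 0.34 ± 0.09 (adjusted p = 0.0009). CCT6A went the other way, at 10.53, 10.41, 10.29 and 10.48 against 10.70 to 11.23, with no overlap and a difference of −0.56 ± 0.11 (adjusted p = 5.64e-05). CCT7 differed by 0.31 ± 0.21 (adjusted p = 0.271), and animal 50 at 10.63 was the only one above its healthy range of 8.71 to 10.43. CCT2 differed by 0.11 ± 0.06 (adjusted p = 0.18).

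The 5 TRiC calls were kept without any 1 NoRx.F array and had the same sign in both batches, at 0.56 and 0.43 for TCP1, 0.53 and 0.30 for CCT4, 0.59 and 0.14 for CCT5, 0.39 and 0.17 for CCT8 and −0.62 and −0.50 for CCT6A. A second CCT6A probe set differed by −1.86, while a probe set shared by CCT6A and a locus without a name (LOC706098) differed by 0.22 ± 0.18 (adjusted p = 0.385). The 10 probe sets of CCT2 differed by −0.84 to 0.57, so the value of a subunit depends on the probe set that stands for it. Animal 50 had the highest level of the 4 NoRx.F animals for TCP1, CCT4, CCT5, CCT7 and CCT8, and also for HSPA8, HSPA9, HSP90AB1, DNAJB11 and FKBP5.

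**Figure D3:**
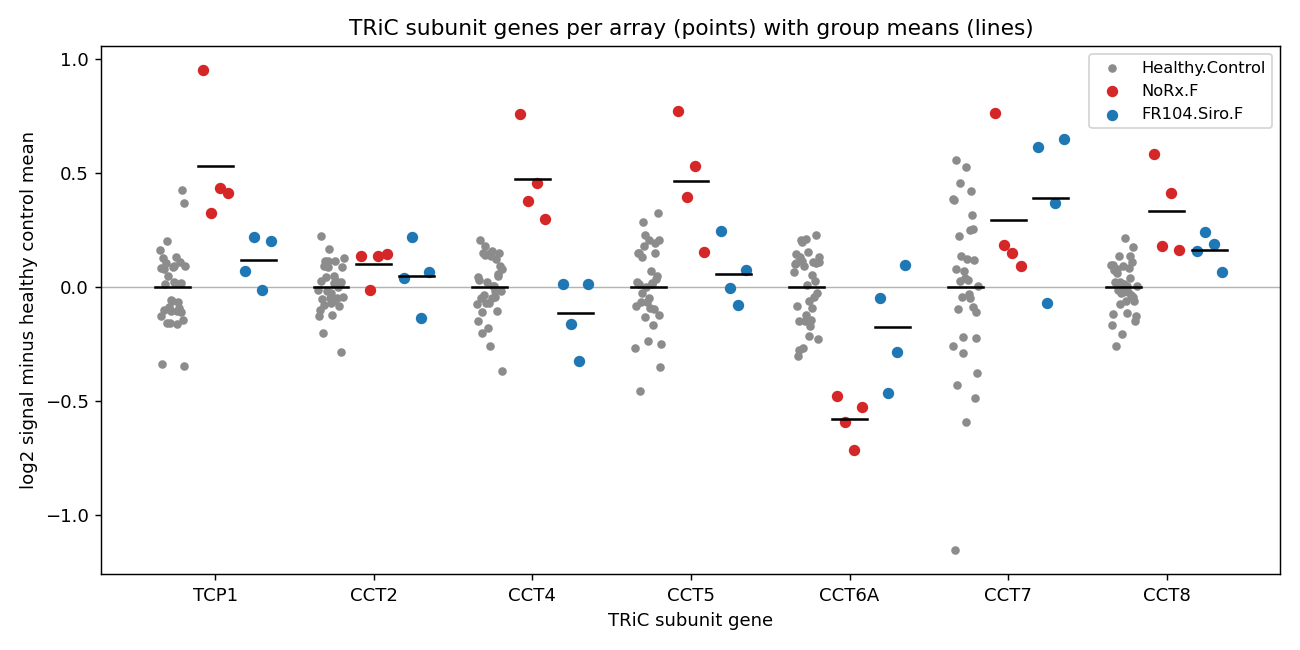
Log2 level minus the healthy mean for 7 TRiC subunits on the arrays of Healthy.Control, NoRx.F and FR104.Siro.F; each point is an array. In NoRx.F all 4 CCT4 points are above and all 4 CCT6A points below the healthy ones.

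J-domain proteins, which start the HSP70 cycle and steer it to clients, made up 28 of the tested genes: 4 were higher and 5 lower in NoRx.F. DNAJC10 is a disulfide reductase of the endoplasmic reticulum that prepares misfolded proteins for removal. Its log2 level was 12.30, 12.28, 12.12 and 12.61 in animals 50 to 53, against a healthy lowest value of 13.11, median of 13.27 and highest of 13.50. Every NoRx.F array was below every healthy one. The means were 12.33 ± 0.21 (SD, n = 4) and 13.27 ± 0.08 (SD, n = 34), and the difference was −0.94 ± 0.07 (adjusted p = 1.14e-16), −1.06 within batch 1 and −0.65 within batch 2. A second DNAJC10 probe set differed by −1.28.

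DNAJB11, a soluble partner of BiP in the same compartment, moved the other way. It stood at 10.51, 10.12, 10.28 and 10.36 against 9.40 to 9.94 in healthy arrays, with no overlap. The difference was 0.65 ± 0.12 (adjusted p = 4.09e-06), 0.61 and 0.69 within the batches. DNAJC1, a J-domain protein of the endoplasmic reticulum membrane, differed by 0.17 ± 0.24 (adjusted p = 0.617).

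DNAJB6, which keeps aggregation-prone proteins soluble, was at 9.13, 8.85, 9.04 and 9.53 against 9.39 to 10.18. The difference was −0.67 ± 0.14 (adjusted p = 4.72e-05), with animal 53 inside the healthy range. Its 5 probe sets ran from −0.67 to 0.24, and over their mean it was −0.16 (adjusted p = 0.223). DNAJA4 was lower, with a difference of −0.64 ± 0.17 (adjusted p = 0.00173), with animals 50, 51 and 52 between 7.24 and 7.31 and animal 53 at 7.85, against a healthy lowest value of 7.62 and median of 8.04; over the mean of its probe sets it differed by −0.30 (adjusted p = 0.0675). DNAJC5B, a cysteine string protein, was lower, with a difference of −0.74 ± 0.13 (adjusted p = 6.68e-06) and stood at 9.54, 9.86, 9.98 and 10.35 against 10.27 to 11.07.

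DNAJC17, a nuclear J-domain protein, stood at 7.99, 7.74, 7.78 and 7.90 against 6.76 to 7.54, a difference of 0.61 ± 0.12 (adjusted p = 5.65e-05). DNAJC21, which takes part in the making of the large ribosomal subunit, stood at 8.69, 8.33, 8.51 and 8.45 against 7.80 to 8.32, a difference of 0.46 ± 0.10 (adjusted p = 0.000105). Both genes were above the healthy range in all 4 animals, DNAJC21 narrowly so; 2 further DNAJC21 probe sets differed by −0.09 and −0.05, and over the mean of all 3 the difference was 0.11 (adjusted p = 0.255). DNAJB5 (0.35, adjusted p = 0.0155) did not pass without animal 53, where it was lowest at 0.25, and DNAJB2 (−0.34, adjusted p = 0.0289) did not pass without animal 50 or 52 (−0.25 at the weakest) or with the actin covariate (−0.29). The heat-inducible DNAJB1 differed by 0.08 ± 0.21 (adjusted p = 0.818) and DNAJA1, the main cytosolic HSP40 of its class, by −0.42 ± 0.25 (adjusted p = 0.205).

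Of the 4 small heat shock proteins only HSPB8, which works with BAG3 in selective autophagy, passed. It stood at 9.47, 8.84, 9.41 and 9.21 against 7.40 to 9.15, a difference of 0.71 ± 0.22 (adjusted p = 0.007). HSPBAP1, a protein that binds a small heat shock protein, stood at 9.93, 10.08, 10.05 and 10.38 against 10.10 to 11.48, a difference of −0.84 ± 0.25 (adjusted p = 0.00491). HSPBP1, an exchange factor of HSP70, differed by 0.27 ± 0.11 (adjusted p = 0.0468) and did not pass without any 1 of the 4 animals (0.25 to 0.29). Of the 62 chaperone genes, 37 had several probe sets, and 8 had at least 2 that were called in NoRx.F. None of these 8 was called in opposite directions. Over the mean of the probe sets, however, HSPA4, HSPA9, HSP90B1, DNAJA4, DNAJB6 and DNAJC21 lost the call.

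Other genes of protein folding were listed by role. Of 22 tested genes of folding in the endoplasmic reticulum, 14 were higher and 3 lower in NoRx.F, with a median difference of 0.44. SDF2L1, a partner of DNAJB11, was higher by 1.36 ± 0.14, SEC61B of the translocon by 1.13 ± 0.10 and the disulfide isomerases P4HB and PDIA5 by 0.83 ± 0.11 and 1.15 ± 0.27. The 3 lower genes were EDEM3 (−0.65), EDEM1 (−0.34) and SEC63 (−0.31), of which the EDEM genes act in the removal of misfolded glycoproteins. Of 10 prefoldin genes and partners, which hand actin and tubulin to TRiC, 7 were higher and 1 lower with a median of 0.39; PFDN6 rose by 0.87 ± 0.12 and PFDN5 differed by −0.81 ± 0.11.

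Of 4 heat shock factor genes, HSBP1 was higher (0.38 ± 0.10) and HSF2 lower (−0.82 ± 0.16), and HSF1, the main heat shock factor, differed by −0.14 ± 0.09 (adjusted p = 0.223). Of 10 regulators of the unfolded protein response, XBP1 was higher (0.59 ± 0.14) and EIF2AK3 lower (−0.57 ± 0.20). Among 20 other co-chaperones 2 were higher and 1 lower, with BAG2, an exchange factor, higher by 2.12 ± 0.32. Of 10 mitochondrial partners 1 was higher, AFG3L2, by 0.42. Of 9 listed genes of the glucocorticoid response, FKBP5 was the only one higher and 4 were lower: TSC22D3 (−1.41 ± 0.17), IL1R2 (−1.48), NR3C1, which encodes the receptor (−1.14), and CXCR4 (−1.58).

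Markers of dividing cells and of other cell types were compared between the same groups, and only the markers of dividing cells were all called. All 13 tested cell cycle markers were higher in NoRx.F, with a median difference of 2.53. Of 8 monocyte markers 4 were higher, among them S100A9 (4.91) and S100A8 (4.64), while CD14 (−0.12) and CSF1R (−0.03) did not pass; the mean level of the list ran from 5.01 to 8.14 in healthy arrays and from 6.65 to 9.04 in NoRx.F. Of 4 plasma cell markers 2 were higher, MZB1 (1.21) and DERL3 (0.23), and the mean level of the list ran from 4.86 to 6.03 in healthy arrays and from 5.29 to 5.66 in NoRx.F. B cell markers had 1 of 5 higher (CD79B, 0.94), NK cell markers 1 of 3 lower (KLRF1, −2.72), and of neutrophil, erythroid and platelet markers none of 5, 3 and 4 passed. The part of these cells in the chaperone differences was not tested.

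The same comparison against healthy arrays was made for each of the other 14 transplant groups. With batch as a term, each group was set against the healthy arrays of its own batches. Groups in the same batch therefore share their controls, and Siro.F alone shares them with NoRx.F. The healthy ranges given are those of all 34 arrays. The count in Bela.F was 16 of 55 (8 higher, 8 lower), where 17.6% of all genes were called (12.4% higher, 5.25% lower). It was 2 without animal 47 and 9 without animal 46. Siro.F had 7 (4 higher, 3 lower), where 14.6% of all genes were called (8.27% higher, 6.34% lower). Tac.Mtx.F had 8 (7 higher, 1 lower), where 14.1% were (10.7% higher, 3.41% lower). FR104.F had 8 (5 higher, 3 lower), where 10.7% were (5.39% higher, 5.28% lower). FR104.Siro.F had 7 (2 higher, 5 lower), where 10.1% were (2.91% higher, 7.15% lower). The count in Siro.F was 4 without animal 13, 17 or 18. Tac.Mtx.F had 5 without animal 21 and 4 without animal 20. FR104.F had none without animal 22, 5 without animal 23 and 4 without animal 24. FR104.Siro.F had 4 without animal 26 or 27 and 3 without animal 28.

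At day 14, Tac.Mtx.D14 had 2 called, both higher, where 1.47% of all genes were called (1.4% higher, 0.0678% lower). Bela.Siro.D14 had 1, higher, where 2.52% were (1.99% higher, 0.525% lower). FR104.D14 had 3, all higher, where 5.39% were (2.58% higher, 2.8% lower). FR104.Siro.D14 had 8 (1 higher, 7 lower), where 18.2% were (8.52% higher, 9.68% lower). Tac.Mtx.D14 had none without any 1 of its arrays. Bela.Siro.D14 had 2 without animal 38 and none without animal 42 or 49. FR104.D14 had none without animal 22 or 23, and FR104.Siro.D14 had 2 without animal 29. Of the later groups, Tac.Mtx.D30 had 1, higher, where 3.46% of all genes were called (2.85% higher, 0.61% lower), and none without animal 19. Bela.Siro.D30 had 6 (4 higher, 2 lower), where 7.17% were (4.23% higher, 2.95% lower), and 1 without animal 42 or 49. Bela.Siro.F had 1, higher, where 2.84% were (1.87% higher, 0.966% lower), and none without either of its 2 arrays.

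**Figure D4:**
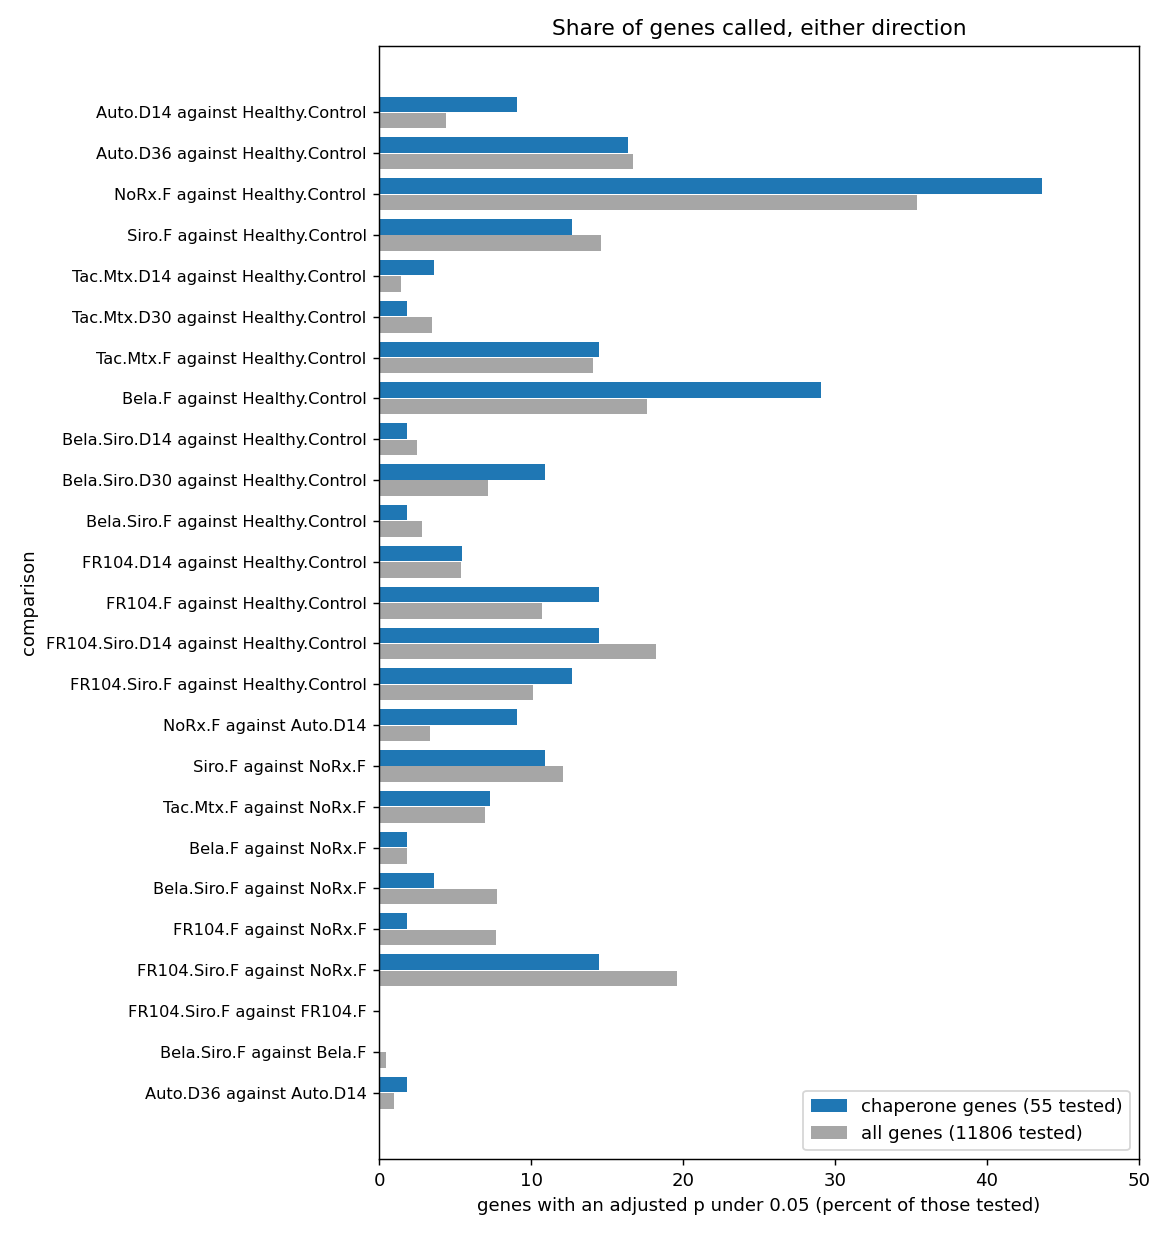
Percent of the 55 tested chaperone genes and of all 11806 genes tested that passed an adjusted p of 0.05 in each of 25 comparisons; bars start at 0. In NoRx.F against healthy the shares were 43.6% and 35.4%, and in Bela.F against healthy 29.1% and 17.6%.

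HSPA8 was higher than in healthy animals in 10 of the 15 transplant groups: Auto.D14, Auto.D36, Bela.Siro.D30 and all 7 final groups. In Siro.F its log2 level was 11.12, 11.31, 11.42 and 11.19, all above the healthy maximum of 11.06, a difference of 0.62 ± 0.13 (adjusted p = 0.000452). In Tac.Mtx.F it was 11.52, 11.29 and 11.03, the last of them inside the healthy range, a difference of 0.66 ± 0.15 (adjusted p = 0.00177). Bela.Siro.F, with both arrays between 11.38 and 11.42, differed by 0.78 ± 0.18 (adjusted p = 0.00569), Bela.Siro.D30 by 0.60 ± 0.15 (adjusted p = 0.00637), Bela.F by 0.64 ± 0.15 (adjusted p = 0.0011), FR104.F by 0.64 and FR104.Siro.F by 0.51. These calls were kept without any 1 array in NoRx.F, Siro.F, Tac.Mtx.F and Bela.Siro.D30. They were lost without animal 46 in Bela.F (0.47), animal 22 in FR104.F (0.44), animal 26, 27 or 28 in FR104.Siro.F (0.47, 0.50 and 0.44), and either animal in Bela.Siro.F (0.76 and 0.80). Over the mean of the 3 HSPA8 probe sets, the call was lost in Auto.D14 (0.27, adjusted p = 0.396), Bela.F (0.26, adjusted p = 0.247), FR104.F (0.36, adjusted p = 0.142), FR104.Siro.F (0.23, adjusted p = 0.396), Bela.Siro.D30 (0.43, adjusted p = 0.0509) and Bela.Siro.F (0.57, adjusted p = 0.0531), and kept in NoRx.F, Siro.F, Tac.Mtx.F and Auto.D36. Without the 11 healthy arrays of transplanted animals it was lost in both Auto groups, FR104.F and FR104.Siro.F (0.45 to 0.58). Against NoRx.F itself, HSPA8 passed in none of the 6 comparisons with prophylaxis groups, where differences ran from −0.13 to −0.40.

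FKBP5 was higher than in healthy animals in Bela.F (1.00 ± 0.24, adjusted p = 0.00165), FR104.D14 (0.86), FR104.F (0.90) and FR104.Siro.F (1.03 ± 0.24, adjusted p = 0.00311), besides NoRx.F. Its log2 levels were 7.90, 7.22 and 7.43 in Bela.F and 7.74, 6.89, 7.21 and 8.33 in FR104.Siro.F, where only the last, animal 28, and animal 47 of Bela.F exceeded the healthy maximum of 7.80. The call was lost without animal 47 in Bela.F (0.81, adjusted p = 0.0692), without animal 28 in FR104.Siro.F (0.76, adjusted p = 0.0606), without animal 22 or 23 in FR104.D14 (0.96 and 0.65) and without animal 22 or 24 in FR104.F (0.91 and 0.69). The actin signal, with medians of 0.028 in FR104.D14 and 0.24 in FR104.F against 1.204 in healthy arrays, ended both of those calls as a covariate (0.61, adjusted p = 0.237, and 0.68, adjusted p = 0.113). Without the 11 healthy arrays of transplanted animals FKBP5 did not pass in FR104.D14 (0.67), FR104.F (0.71) or FR104.Siro.F (0.84). DNAJB5, a J-domain protein of the heat shock type, was called in all 3 Tac.Mtx groups, which are drawn from the same animals. It was the only chaperone gene called in Tac.Mtx.D30. The differences were 0.47, 0.65 ± 0.15 (adjusted p = 0.00838) and 0.52 ± 0.13 (adjusted p = 0.00363) on day 14, day 30 and in the final samples. The call was lost on day 14 without any 1 array (0.42 to 0.53) and over the mean of its probe sets (0.23, adjusted p = 0.243), and without animal 19 on day 30. DNAJB5 was also called higher in Siro.F (0.32), Bela.F (0.38) and NoRx.F (0.35), so its rise was not particular to Tac.Mtx. Those calls were each lost without at least 1 array.

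In autologous recipients at day 14, 5 chaperone genes were called (1 higher, 4 lower), where 4.4% of all genes were called (2.47% higher, 1.92% lower). HSP90AB1 was at 12.47, 12.06 and 12.62 in animals 201, 202 and 200 (−0.55 ± 0.13, adjusted p = 0.0088), HSP90B1 at 9.11, 8.78 and 9.36 (−0.44 ± 0.12, adjusted p = 0.0211) and FKBP4 at 7.57, 7.03 and 7.14 (−0.69 ± 0.19, adjusted p = 0.0229). Animal 202 was the lowest of the 3 for each gene, and its array was 1 of the 8 with bright control spots. DNAJC10 differed by −0.28 ± 0.08 (adjusted p = 0.0403) and HSPA8 by 0.55 ± 0.16 (adjusted p = 0.0359). None of the 5 was called without animal 202, where the differences of HSP90AB1, HSP90B1, FKBP4, DNAJC10 and HSPA8 were −0.39, −0.28, −0.58, −0.15 and 0.45; 3 genes were called without animal 200. Over the mean of their probe sets HSP90B1 (−0.22), FKBP4 (−0.37), DNAJC10 (−0.38) and HSPA8 (0.27) did not pass either.

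At day 36, 9 were called (5 higher, 4 lower), where 16.7% of all genes were called (7.84% higher, 8.89% lower), with 3 called without animal 201 and 5 without animal 200. DNAJB11 was at 10.36, 10.22 and 10.09, above every healthy array (0.55 ± 0.14, adjusted p = 0.00324), DNAJB2 differed by −0.59 ± 0.15 (adjusted p = 0.00342) and DNAJC10 by −0.34 ± 0.08 (adjusted p = 0.00341). Leaving out 1 array ended none of these 3 calls, but other settings ended each. With the actin signal as a covariate, on which this group is the lowest, DNAJB11 was at 0.39 (adjusted p = 0.109) and DNAJB2 at −0.42 (adjusted p = 0.116). Over the mean of probe sets DNAJB11 was at 0.38 (adjusted p = 0.0599) and DNAJC10 at −0.34 (adjusted p = 0.0527), and without the 11 healthy arrays of transplanted animals DNAJB2 was at −0.28 and DNAJC10 at −0.31. CCT7 (0.83 ± 0.25), HSPA8 (0.52), HSPA12B (0.43), CCT2 (0.23), CCT6A (−0.40) and FKBP4 (−0.53) each lost the call without at least 1 animal. With the actin covariate CCT7 was at 0.12 (adjusted p = 0.811) and FKBP4 at −0.35 (adjusted p = 0.372), and over the mean of its probe sets FKBP4 was at −0.04. Of 13 cell cycle markers 10 were also higher at day 36. Between the days, HSP90B1 was higher at day 36 than at day 14 by 0.51 ± 0.14 (adjusted p = 0.0453), the 1 chaperone gene called where 0.974% of all genes were; it was lost without any 1 array other than animal 200 at day 14, and 4 genes were called without that array. Without animal 202 at day 14, the difference was 0.36 (adjusted p = 0.642); it was 0.17 (adjusted p = 0.535) over the mean of probe sets and 0.40 (adjusted p = 0.737) with the actin covariate.

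Set against autologous day 14, NoRx.F addresses the difference between an allogeneic and an autologous graft, although the sampling times were not matched. There 4 genes were higher and 1 lower, where 3.33% of all genes were called (1.9% higher, 1.43% lower). DNAJC10 was lower, with a difference of −0.66 ± 0.11 (adjusted p = 0.000204), its 12.12 to 12.61 in NoRx.F lying below 12.74, 13.08 and 13.16 in Auto.D14. This call was kept without any 1 of the 7 arrays. HSPA9 was higher by 0.74 ± 0.19 (adjusted p = 0.0143), TCP1 by 0.62 ± 0.17 (adjusted p = 0.0207), CCT4 by 0.52 ± 0.15 (adjusted p = 0.0358) and FKBP5 by 1.17 ± 0.35 (adjusted p = 0.0426). Each of these was lost without at least 2 of the 7 arrays, and the count was 1 without NoRx.F animal 50, 2 without NoRx.F animal 52 or Auto.D14 animal 202 and 3 without Auto.D14 animal 200. FKBP5 was at 1.01 to 1.39 without 1 array, and 1.06 (adjusted p = 0.051) with the actin covariate; TCP1 was at 0.35 (adjusted p = 0.21) over the mean of its probe sets. Of 13 cell cycle markers 6 were higher in NoRx.F, and of 8 monocyte markers none passed at a median of 1.98. The batches of these 2 groups do not overlap, so the comparison runs through the healthy arrays of each batch.

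The 6 final prophylaxis groups were then compared with NoRx.F, 4 arrays which all of them share as controls. DNAJC10 was higher in each, and its ranges did not overlap in any. Its log2 level, 12.12 to 12.61 in NoRx.F, was 12.84 to 13.08 in Siro.F, 12.96 to 13.34 in Tac.Mtx.F, 12.66 to 13.07 in Bela.F, 13.20 and 13.30 in Bela.Siro.F, 12.87 to 13.19 in FR104.F and 13.03 to 13.24 in FR104.Siro.F. The differences were 0.61 ± 0.09 in Siro.F (adjusted p = 9.27e-07), 0.81 ± 0.10 in Tac.Mtx.F (2.58e-07), 0.59 ± 0.10 in Bela.F (0.000652), 0.92 ± 0.12 in Bela.Siro.F (1.36e-07), 0.68 ± 0.11 in FR104.F (7.75e-05) and 0.82 ± 0.11 in FR104.Siro.F (7.23e-08). Each was kept without any 1 array. Against healthy animals DNAJC10 was still lower in Siro.F (−0.33 ± 0.07, adjusted p = 0.00033), Bela.F (−0.35 ± 0.08, adjusted p = 0.000578) and FR104.F (−0.26); the last was lost without animal 22 (−0.19) or 24 (−0.24). Bela.F animal 47, at 12.66, was the nearest to NoRx.F.

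FR104.Siro.F differed from NoRx.F in 8 chaperone genes, 2 higher and 6 lower, where 6.55% of all genes were higher and 13.1% lower. The median was −0.15 over the chaperones and −0.08 over all genes. DNAJB11 was at 9.82, 9.66, 9.27 and 9.66, below the 10.12 to 10.51 of NoRx.F (−0.73 ± 0.17, adjusted p = 0.00126). CCT4 was at 11.58, 11.40, 11.24 and 11.58, below the 11.86 to 12.32 of NoRx.F (−0.60 ± 0.14, adjusted p = 0.00156). DNAJC1 was lower, with a difference of −1.37 ± 0.35 (adjusted p = 0.00306). These 3 calls were kept without any 1 of the 8 arrays.

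DNAJC17 (−0.56, adjusted p = 0.023), DNAJB5 (−0.49, adjusted p = 0.0361), TCP1 (−0.43, adjusted p = 0.0436) and DNAJC5B (0.58, adjusted p = 0.0287) completed the calls in FR104.Siro.F, and each was lost without NoRx.F animal 50 among others. TCP1 was also lost with the animal as a random block (−0.41, adjusted p = 0.0546), and DNAJB5 over the mean of its probe sets (−0.14, adjusted p = 0.496). Without the 8 arrays of bright control spots, DNAJB5 (−0.30, adjusted p = 0.235), DNAJC17 (−0.48, adjusted p = 0.0733) and TCP1 (−0.38, adjusted p = 0.117) did not pass. DNAJC5B was kept there (0.59, adjusted p = 0.048). Without NoRx.F animal 50 the count was 4, and without FR104.Siro.F animal 28 it was 5. Of 22 endoplasmic reticulum folding genes 3 were higher and 9 lower, and of 13 cell cycle markers 10 were lower with a median of −1.83. The part of dividing cells in these differences was not tested.

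Siro.F differed from NoRx.F in 6 chaperone genes (3 higher, 3 lower), where 12.1% of all genes were called (5.39% higher, 6.68% lower). DNAJB11 was lower (−0.50 ± 0.14, adjusted p = 0.0107) and HSP90B1 higher at 9.48, 9.12, 9.30 and 9.28 against 8.56 to 9.31, a difference of 0.39. Both were lost without NoRx.F animal 50 (−0.44 and 0.28) or Siro.F animal 17 (−0.42 and 0.30), and HSP90B1 also without NoRx.F animal 51 (0.35). Over the mean of probe sets HSP90B1 was at 0.15 (adjusted p = 0.411) and DNAJB11 at −0.42 (adjusted p = 0.0632). The other calls were CCT4 (−0.34), DNAJB8 (−0.37) and DNAJC5B (0.48), each lost without at least 5 of the 8 arrays. DNAJB8 was dim, at 3.99 to 4.16 in Siro.F against 4.28 to 4.60 in NoRx.F, all below the filter level of 4.65. The count was 2 without NoRx.F animal 50, 3 without NoRx.F animal 52 or Siro.F animal 16, and 1 without Siro.F animal 17. Of 22 endoplasmic reticulum folding genes 7 were lower and of 13 cell cycle markers 9 were lower.

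Tac.Mtx.F differed from NoRx.F in 4 (2 higher, 2 lower), where 6.95% of all genes were called (4.7% higher, 2.24% lower). They were DNAJC10, HSP90B1 (0.56 ± 0.15, adjusted p = 0.0101), CCT4 (−0.45) and TCP1 (−0.48), of which CCT4 and TCP1 were each lost without 5 of the 7 arrays. HSP90B1, at 9.37 to 9.61, lay above all 4 NoRx.F arrays, but was lost without NoRx.F animal 50 (0.46, adjusted p = 0.0557) or Tac.Mtx.F animal 19 (0.50, adjusted p = 0.0649), and over the mean of its probe sets it was at 0.23 (adjusted p = 0.286). Over that mean TCP1 differed by −0.26 in Tac.Mtx.F, by −0.23 in Bela.Siro.F and by −0.21 in FR104.Siro.F, none past the threshold. TCP1 was lost with the animal block (−0.47, adjusted p = 0.0515). The count was 1 without NoRx.F animal 50 or Tac.Mtx.F animal 19 and 2 without NoRx.F animal 52 or Tac.Mtx.F animal 20. Bela.Siro.F differed in 2, where 7.75% of all genes were called (4.22% higher, 3.53% lower): DNAJC10 and TCP1 (−0.53), the second lost without 4 of the 6 arrays, with 4 called without Bela.Siro.F animal 38 and 1 without NoRx.F animal 52. Bela.F and FR104.F differed in DNAJC10 alone, where 1.86% and 7.67% of all genes were called; FR104.F had 2 without NoRx.F animal 53.

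DNAJC1 fell in groups given FR104 with Siro and in 1 group given Bela with Siro. In FR104.Siro.D14 its log2 level was 8.43, 8.49, 8.36 and 8.36 in animals 26, 29, 28 and 27, against a healthy lowest value of 8.95, median of 9.85 and highest of 10.51. All 4 arrays were below every healthy array, and the difference was −1.39 ± 0.26 (2.62-fold lower, adjusted p = 0.000225). In the final samples of the same animals it was 8.69 in animal 27, 9.12 in 26, 7.93 in 29 and 8.67 in 28, so that only animal 26 re-entered the healthy range (−1.19 ± 0.26, adjusted p = 0.0013). In Bela.Siro.D30 it was 10.04, 8.40 and 7.94 in animals 38, 42 and 49 (−1.02 ± 0.26, adjusted p = 0.00789), 1 animal within the healthy range and 2 below it.

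Both FR104.Siro calls of DNAJC1 were kept without any 1 array, and a second probe set differed by −0.99 and −1.03. The Bela.Siro.D30 call was lost without animal 42 (−0.82) or 49 (−0.59), and the second probe set there differed by −0.22 (adjusted p = 0.627). All 4 FR104.Siro.D14 arrays had bright control spots, so no value remains there without such arrays; in FR104.Siro.F, where 1 array had them, the difference without it was −0.97 (adjusted p = 0.0252). Without the 11 healthy arrays of transplanted animals, which leaves 2 healthy arrays of 6 in that batch, the differences were −0.99 (adjusted p = 0.112) and −0.79 (adjusted p = 0.306). Levels in the groups given FR104, Bela or Siro alone were 9.13 to 9.78 in FR104.D14, 9.31 to 9.55 in FR104.F, 9.49 to 9.72 in Bela.F and 9.47 to 10.43 in Siro.F, all inside the healthy range.

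Of the other FR104.Siro.D14 calls against healthy arrays, all but HSPB6 were lower. DNAJC13, which acts on endosomes, was at 8.75, 8.46, 8.75 and 8.50 against 8.62 to 9.29 (−0.43 ± 0.11, adjusted p = 0.00661) and was kept without any 1 array. It did not pass after renewed quantile normalization (−0.27, adjusted p = 0.0569), with the day 14 arrays alone (−0.29, adjusted p = 0.215) or without the 11 healthy arrays of transplanted animals (−0.35, adjusted p = 0.21). DNAJB14 (−0.74), DNAJB1 (−0.70), DNAJC16 (−0.44), DNAJB6 (−0.42), HSPBAP1 (−0.90) and HSPB6 (0.36) were each lost without at least 1 of the 4. In FR104.Siro.F, DNAJA4 (−0.79 ± 0.18, adjusted p = 0.00287) was kept without any 1 array, but not over the mean of its probe sets (−0.32, adjusted p = 0.172) or without those 11 healthy arrays (−0.68, adjusted p = 0.199). DNAJB1 was at 8.39, 8.50, 7.71 and 7.71 there, against 8.19 to 9.75 (−0.72), with 2 animals below the healthy range, and was lost without 2 of the 4 arrays.

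Samples with Siro added to another agent were compared with those of that agent alone. At the final time FR104.Siro.F did not differ from FR104.F in any chaperone gene by limma; 8 had an unadjusted p under 0.05, and 0.00847% of all genes were called. The difference in DNAJC1 was −0.85, with a 95% confidence interval from −1.46 to −0.23 (adjusted p = 0.532). For DNAJB11 it was −0.40 (interval −0.69 to −0.10), for CCT4 −0.31 (−0.56 to −0.06), for HSPA8 −0.13 (−0.48 to 0.22) and for FKBP5 0.12 (−0.45 to 0.70). The missed threshold does not show that the 2 regimens act alike. The intervals of DNAJC1, DNAJB11 and CCT4 lie below 0, but they do not show a difference either. These intervals, and those that follow, are of single genes and are not adjusted for the number of genes tested.

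Bela.Siro.F against Bela.F likewise gave no call (5 at an unadjusted p under 0.05; 0.457% of all genes; 1 call without Bela.Siro.F animal 38). The difference was 0.33 for DNAJC10 (0.11 to 0.55), −0.64 for FKBP5 (−1.32 to 0.05), 0.38 for FKBP4 (−0.12 to 0.87) and −0.31 for DNAJC1 (−1.04 to 0.42). The test of whether adding Siro had a different effect with FR104 than with Bela called no chaperone gene, with 3 at an unadjusted p under 0.05 and 0.0254% of all genes called. Its estimate was 0.76 for FKBP5 (−0.13 to 1.65) and −0.54 for DNAJC1 (−1.49 to 0.42).

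At the earlier time FR104.Siro.D14 had 4 genes lower than FR104.D14 and none higher, where 4.46% of all genes were called. DNAJC21 was at 8.12, 7.82, 7.79 and 7.76 against 8.29, 8.61 and 8.35, without overlap (−0.55 ± 0.13, adjusted p = 0.00737), and among single arrays was lost only without FR104.D14 animal 22; over the mean of its probe sets it was at −0.24 (adjusted p = 0.0872). DNAJB11 was at 8.99 to 9.79 against 9.80 to 9.92 (−0.54 ± 0.15, adjusted p = 0.0246), DNAJC1 at 8.36 to 8.49 against 9.13 to 9.78 (−1.01 ± 0.31, adjusted p = 0.041), and CCT2 at 11.33 to 11.53 against 11.57 to 11.82 (−0.27 ± 0.08, adjusted p = 0.0333). After renewed quantile normalization CCT2 was at −0.17 (adjusted p = 0.161) and DNAJC1 at −0.86 (adjusted p = 0.081). The groups did not overlap for any of the 4, but these genes were picked by their call. The share of all genes without overlap is not given here.

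The DNAJC1 call between these groups was lost without any 1 array other than FR104.D14 animal 23 (−0.84 to −1.04 in those runs). The DNAJB11 call was lost without FR104.D14 animal 22 or 24 (−0.52 in both) or FR104.Siro.D14 animal 26 (−0.42) or 29 (−0.47). The count was none without FR104.D14 animal 22, 1 without FR104.D14 animal 24 and 2 without FR104.Siro.D14 animal 26 or 29. With only the 2 arrays taken on day 14, no gene was called; DNAJC1 differed by −1.03 (adjusted p = 0.169) and DNAJB11 by −0.66 (adjusted p = 0.0519). Of 13 cell cycle markers 10 were lower in FR104.Siro.D14 (median −1.43), and the arrays of this group also had the bright control spots; the part of either in these differences was not tested.

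Of the 4 HSP90 co-chaperones, FKBP4 and AHSA1 differed between Bela.Siro.D30 and Bela.F, groups that differ in agent and in time. FKBP4 was at 8.16, 8.62 and 8.63 in animals 38, 42 and 49 on day 30 with Siro, against 7.31, 7.01 and 7.80 in animals 47, 57 and 46 of Bela.F and 7.58 to 8.24 in healthy arrays. The difference between the groups was 1.10 ± 0.22 (2.14-fold, adjusted p = 0.00291). AHSA1 was at 11.08, 11.24 and 10.67 against 9.93, 9.75 and 10.44 (0.96 ± 0.23, adjusted p = 0.0135), and DNAJC10 at 13.19 to 13.38 against 12.66 to 13.07 (0.37 ± 0.10, adjusted p = 0.0339). For none of these 3 genes, the only ones called (1.47% of all genes), did the groups overlap. Some chaperone genes that were not called, such as STIP1, DNAJA1 and DNAJB4, did not overlap either. The called genes were picked by their call, and the share of all genes without overlap is not given here, so the lack of overlap adds no support.

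All 3 calls were lost without Bela.F animal 47, at 1.07 for FKBP4 (adjusted p = 0.0633), 0.90 for AHSA1 and 0.24 for DNAJC10. AHSA1 was also lost without Bela.F animal 57 (0.81) or Bela.Siro.D30 animal 42 (0.84), and DNAJC10 without Bela.Siro.D30 animal 49 (0.32). Over the mean of probe sets FKBP4 was at 0.51 (adjusted p = 0.06) and DNAJC10 at 0.37 (adjusted p = 0.232), neither past the threshold. Without Bela.Siro.D30 animal 38, 6 genes were called. Against healthy arrays FKBP4 was higher in Bela.Siro.D30 (0.55) and lower in Bela.F (−0.55); the first was lost without animal 42 (0.48) or 49 (0.47) and the second without animal 47 (−0.51) or 57 (−0.36). Over the mean of its probe sets these were 0.23 (adjusted p = 0.221) and −0.27 (adjusted p = 0.1). Of 13 cell cycle markers 8 were lower in Bela.Siro.D30 than in Bela.F, with a median of −1.5.

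Animals 38 and 42 gave both a day 30 and a final sample under Bela with Siro. FKBP4 went from 8.16 to 7.01 in animal 38 and from 8.62 to 8.49 in animal 42. From day 30 to the final sample, animal 38 changed by −1.15 in FKBP4, −1.27 in AHSA1, −0.85 in STIP1, −0.43 in HSP90AB1, −0.53 in CCT6A and −1.87 in HSPH1. The same changes in animal 42 were −0.14, −0.24, −0.18, 0.19, −0.08 and −0.19. These are values of single animals, for which no test can be made; the genes were chosen after their values were seen, and the final array of animal 38 was 1 of those with bright control spots.

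**Figure D5:**
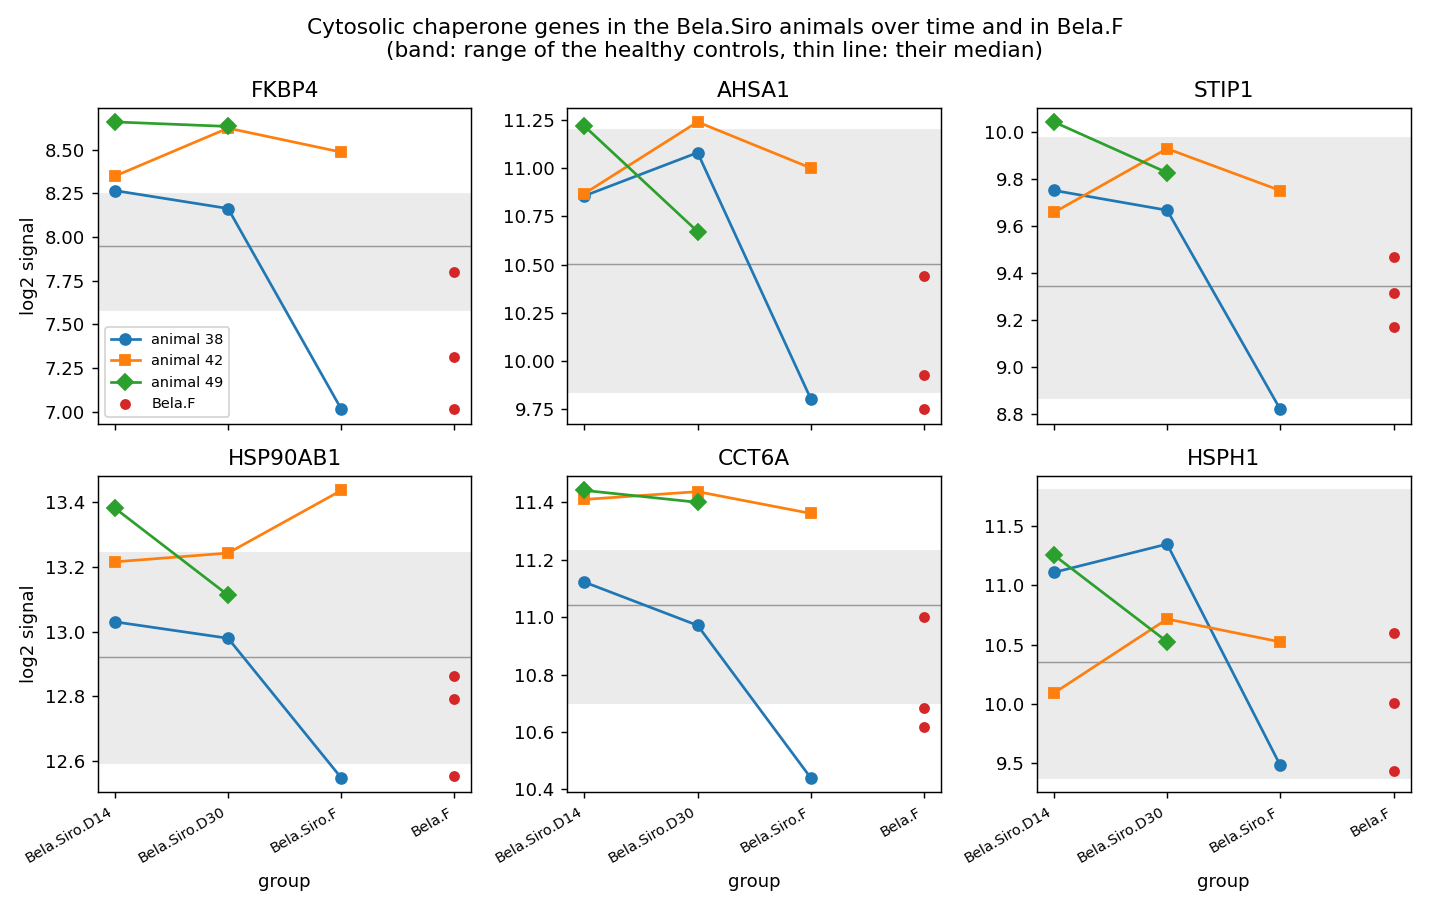
Log2 level of FKBP4, AHSA1, STIP1, HSP90AB1, CCT6A and HSPH1 in animals 38, 42 and 49 under Bela with Siro on day 14, day 30 and at the final sample, with the 3 Bela.F arrays as separate points. Animal 38 falls in all 6 genes between day 30 and the final sample (FKBP4 changed by −1.15), while animal 42 stays within 0.24 log2 units.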

How the data were processed

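The deposited table holds log2 intensities of 52865 probe sets on 81 arrays. Per the submitters' processing notes they were made by RMA in affy, versions not given in the sources used here; the values, from 1.52 to 16.7, fit a log2 scale. Genes were named from the platform's table, using probe sets with 1 gene. Arrays were fitted together with limma 3.58.1 in R 4.3.3 (group and batch terms, trended variances, 62 residual degrees of freedom). A gene was tested where its log2 value exceeded the 40th percentile (4.65) in at least 2 arrays, and called at an adjusted p under 0.05 (Benjamini-Hochberg within a comparison). The 25 planned and 3 added comparisons take the groups from the labels. The number of arrays in a group limits the precision.

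The gene set, the lists and the comparisons were chosen with earlier results of these data known. Named are a set of well-known chaperones, up to 4 called genes of each family with the largest difference, and up to 4 genes of each wider list with the smallest adjusted p; others are named as single values or exceptions after their values were seen.

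Replicate numbers are animal numbers, so they pair arrays: deviations from the group means correlated at 0.084 to 0.664 (median 0.344) over 24 pairs of transplant arrays of 1 animal, and at −0.186 to 0.332 over 17 pairs of a healthy and a transplant array. The animal as a random block (statmod 1.5.0) was an alternative. Others were no batch term, single batches, the mean of a gene's probe sets, no filter, renewed quantile normalization, the actin signal as a covariate and leaving out arrays. Tested on simulated data for NoRx.F against healthy arrays over 11806 genes, the fit found 57 of 100 genes changed by 0.5 and 94 of 100 changed by 1, with 10 false calls among 161. For FR104.Siro.F against NoRx.F it found 24 and 73 of 100, with 5 false calls among 102. For FR104.Siro.F against FR104.F it found 36 and 87 of 100, with 3 false calls among 126. The simulated noise was independent between arrays and had the same spread in every group.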

Additional observations from a re-analysis of the deposited data

Results flagged for a closer look

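Among 71 combinations of a named gene and a group of 4 arrays that were examined for an array far from the rest, 7 had one; chance gives about 1 in 20. In NoRx.F, animal 50 stood apart for HSP90AB1 (12.78), CCT7 (10.63) and TCP1 (10.98), animal 51 for CCT2 (11.58) and animal 53 for DNAJA4 (7.85). In FR104.Siro.D14, animal 26 stood apart for DNAJC21 (8.12), and in FR104.Siro.F, animal 28 for DNAJC5B (10.68). Animal 50 was the highest in each of its 3 genes, animal 51 the lowest for CCT2, and animals 53, 26 and 28 the highest in theirs.

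In 3 comparisons of transplant groups with each other, those with NoRx.F not counted here, 8 differences were called. HSP90B1 differed by 0.51 between Auto.D36 and Auto.D14. Between Bela.Siro.D30 and Bela.F, FKBP4 differed by 1.10, AHSA1 by 0.96 and DNAJC10 by 0.37. Between FR104.Siro.D14 and FR104.D14, DNAJC1 differed by −1.01, DNAJC21 by −0.55, DNAJB11 by −0.54 and CCT2 by −0.27. All 8 lost the call without at least 1 array.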

How the results depend on the processing

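Leaving out 1 array at a time gave counts of called chaperone genes, against healthy arrays, of 20 to 25 in NoRx.F, 0 to 6 in Auto.D14, 3 to 8 in Auto.D36, 4 to 6 in Siro.F, 0 to 0 in Tac.Mtx.D14, 0 to 1 in Tac.Mtx.D30, 4 to 6 in Tac.Mtx.F, 2 to 13 in Bela.F, 0 to 2 in Bela.Siro.D14, 1 to 9 in Bela.Siro.D30, 0 to 0 in Bela.Siro.F, 0 to 3 in FR104.D14, 0 to 5 in FR104.F, 2 to 8 in FR104.Siro.D14 and 3 to 5 in FR104.Siro.F. It gave 1 to 6 in NoRx.F against Auto.D14; against NoRx.F, 1 to 9 in Siro.F, 1 to 6 in Tac.Mtx.F, 1 to 1 in Bela.F, 1 to 4 in Bela.Siro.F, 1 to 2 in FR104.F and 4 to 12 in FR104.Siro.F; 0 to 4 in Auto.D36 against Auto.D14, 0 to 1 in Bela.Siro.F against Bela.F, 0 to 6 in Bela.Siro.D30 against Bela.F, 0 to 5 in FR104.Siro.D14 against FR104.D14, and 0 in FR104.Siro.F against FR104.F and in the interaction. Without a batch term the counts against healthy arrays were 9 in Auto.D14, 16 in Auto.D36, 3 in Tac.Mtx.D30, 6 in Bela.Siro.D14, 5 in FR104.D14, 15 in FR104.F and 17 in FR104.Siro.D14, and against NoRx.F 8 in Tac.Mtx.F, 5 in Bela.Siro.F, 4 in FR104.F and 20 in FR104.Siro.F. With the replicate block (animal) they were 3 in Tac.Mtx.D30, 3 in Bela.Siro.D14 and 3 in Auto.D36 against Auto.D14; of 148 values of named genes under the block, 144 kept their side of the threshold, and HSP90B1 in Bela.F against healthy arrays lost it (−0.28, adjusted p = 0.0616). The mean of a gene's probe sets gave 0 in Tac.Mtx.D14, 8 in Bela.F, 3 in Bela.Siro.D30, 0 in Bela.Siro.F, 5 in FR104.D14, 5 in FR104.Siro.D14 and 4 in FR104.Siro.F; against NoRx.F 3 in Siro.F, 2 in Tac.Mtx.F and 3 in FR104.F; and 5 in Auto.D36 against Auto.D14. No filter gave 1 in Bela.Siro.F against NoRx.F and 0 in Auto.D36 against Auto.D14. Renewed quantile normalization gave 3 in Bela.Siro.D14, 5 in FR104.Siro.D14, 4 in Bela.Siro.F against NoRx.F and 0 in Auto.D36 against Auto.D14. The actin covariate gave 3 in Auto.D36, 2 in Tac.Mtx.D30, 3 in Bela.Siro.D30, 0 in FR104.D14, 1 in FR104.F, 1 in Bela.Siro.F against NoRx.F and 0 in Auto.D36 against Auto.D14. Single batches gave 0 in Siro.F (batch 1), 6 in NoRx.F and 0 in Siro.F against NoRx.F (batch 2), 0 in Tac.Mtx.D14, 10 in Bela.F, 0 in Bela.Siro.D14, 3 in Bela.Siro.D30 and 1 in Bela.Siro.D30 against Bela.F (batch 3), and 2 in Auto.D14, 4 in Auto.D36, 1 in FR104.D14, 4 in FR104.F, 5 in FR104.Siro.D14, 0 in Auto.D36 against Auto.D14 and 2 in FR104.Siro.D14 against FR104.D14 (batch 4). Only day 14 arrays gave 1 in FR104.Siro.D14 and 0 against FR104.D14. After the data were seen, 2 further settings were added. Without the 8 arrays of bright control spots the counts were 0 in Auto.D14, 0 in Bela.Siro.F, 0 in FR104.D14, 1 in NoRx.F against Auto.D14, 4 in Bela.Siro.F against NoRx.F, 1 in Bela.Siro.F against Bela.F and 0 in Auto.D36 against Auto.D14, with no array left for FR104.Siro.D14. Without the 11 healthy arrays of transplanted animals they were 1 in Auto.D14, 3 in Auto.D36, 4 in Siro.F, 1 in Tac.Mtx.D14, 0 in FR104.D14, 1 in FR104.F, 0 in FR104.Siro.D14 and 0 in FR104.Siro.F. Of named genes, 2 reversed: CCT2 in Bela.Siro.D30 against healthy arrays was −0.097 over the mean of its probe sets, and HSP90B1 in Siro.F against NoRx.F was −0.017 within batch 2. Apart from fewer arrays or other probe sets, the cause was not tested. For the counts under other settings or without an array, the share of all genes called is not given here or above. A changed count is therefore not a result about the chaperones alone.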

Other observations

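A probe set shared by DNAJA1 and a locus without a name (LOC696406) differed by −0.21 ± 0.23 (adjusted p = 0.553) between NoRx.F and healthy arrays, where the probe set of DNAJA1 alone differed by −0.42 ± 0.25. DNAJC6, which uncoats clathrin vesicles, was lower in Bela.F than in healthy arrays, with a difference of −1.23 ± 0.45 (adjusted p = 0.044), and lost the call without 2 of the 3 arrays (−1.06 to −1.49 over the runs). It was dim, with a mean of 3.53 in Bela.F, and exceeded the filter level of 4.65 on 22 of the 81 arrays. HSPB8, higher in NoRx.F, was also higher in FR104.F at 9.60, 9.53 and 9.23 against 7.40 to 9.15 in healthy arrays (0.92 ± 0.26, adjusted p = 0.0137), and lost the call without animal 22 or 23 and with the actin signal as a covariate (0.71, adjusted p = 0.09).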
